A study of Saccharomyces cerevisiae with 6 samples.

Results

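The positions described here are those of the yeast 35S ribosomal RNA gene at which at least 8 of the last 10 transcribed nucleotides, the mapped 3′ end included, were C or U. The rule uses the base sequence alone and no measured value, but it was chosen with earlier results of these data known. These positions numbered 346 of 6858 (5.05%). They lay in 95 tracts, a tract being a run of consecutive such positions, of which 26 were in the transcribed spacers and the others in the mature rRNA genes. All other positions of the same region served as the comparison.

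RNA polymerase I (Pol I) transcribes a single gene, whose 35S product holds the 18S, 5.8S and 25S rRNAs between the spacers ETS1, ITS1, ITS2 and ETS2. Native elongating transcript sequencing (NET-Seq) maps the 3′ end of the RNA held by immunoprecipitated Pol I, so that the count at a position stands for polymerase occupancy there. RNA 3′ ends were compared in 3 libraries of wild-type yeast (WT) and 3 of *rpa190-F1205H*, each from a separate culture grown at 30 °C. The mutant was a haploid with the chromosomal *RPA190* gene replaced by HIS3 and the *rpa190-F1205H* allele on the pRS315 plasmid, and it carried a 3×-hemagglutinin tag at the C terminus of Rpa135. WT is described only as a parent strain, and whether its *RPA190* gene was on the chromosome or on a plasmid is not given in the sources used here.

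Rpa190 is the largest Pol I subunit, and the substituted residue lies in the trigger loop, a mobile element that closes over the incoming nucleotide. As background, a polymerase adds each nucleotide at a rate that depends on the RNA and DNA bases near its active site, and a stretch of U paired to A in the template makes a weak RNA-DNA hybrid. The Pol I terminator of yeast includes a T-rich element before a protein-bound site. Spacer RNA is cut by the RNase III enzyme Rnt1 and trimmed by exonucleases, and its processing takes place during transcription as well as after it.

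In the sequences below, capitals mark the pyrimidine-rich positions, that is, the mapped 3′ ends whose last 10 nucleotides pass the rule, and lower case marks the flanking bases. The sequences are those of the RNA, 5′ to 3′, which match the minus strand of chromosome XII in build R64. There the gene is annotated as RDN37-2 and position 1 is chrXII:467569. The first 3 hold the spacer tracts with a lower mean in every mutant library, the next 3 hold spacer tracts with a higher one, and the last holds a long tract whose level overlapped between strains.
5.8S end and ITS2 start (chrXII:464538-464567): cuguuugagcgucauuucCUUCUCAAacau
25S end and ETS2 start (chrXII:460898-460928): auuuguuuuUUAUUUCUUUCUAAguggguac
T1 terminator in ETS2 (chrXII:460825-460842): uuuuauuugUCUUaagaa
ETS1 last tracts (chrXII:466873-466919): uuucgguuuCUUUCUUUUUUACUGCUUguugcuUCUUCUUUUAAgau
ETS1 middle tract (chrXII:467168-467186): uaaccuccuCUCAAaucag
ITS2 middle tract (chrXII:464458-464476): auguuuuuuUUCCAAagag
ITS1 middle tract (chrXII:464913-464936): aguuucuuuCUUGCUAUUCCaaac

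The spacers held 133 of the 346 positions (8.84% of 1504 spacer positions) and the genes 213. ITS2 was the richest region, with 32 of 232 positions (13.8%), followed by ITS1 with 36 of 361, ETS2 with 18 of 211 and ETS1 with 47 of 700. In 18S there were 71, in 5.8S 7 and in 25S 135. Of the 346, 261 had exactly 8 pyrimidines, 69 had 9 and 16 had 10. Uracil made up 65.6% of the window bases at the spacer positions and 49.7% at the gene positions, and cytosine 19.1% and 32.1%. The last base was U at 194 positions, C at 96, A at 36 and G at 20.

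Each library held 2028349 to 3687549 reads on the 35S gene, of which 80693 to 127746 ended at the pyrimidine-rich positions. Values are reads scaled to a sum of 1000000 up to the terminator T1 (normalized reads), so each is a share, and a higher share in 1 region lowers the others. Zero was listed in every library at 15 positions, among them the last 2 of 5.8S with the first of ITS2 and the last of 25S with the first 2 of ETS2, and none was pyrimidine-rich. A nascent 3′ end and the end of a cut or mature RNA cannot be told apart in these reads, which bears on the tracts within 20 nucleotides of a mature rRNA end.

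In the spacers as a whole, pyrimidine-rich positions took a much smaller share of the reads in the mutant. They held 14.6%, 15.0% and 16.6% of spacer reads in the WT libraries and 4.06%, 3.99% and 3.88% in the *rpa190-F1205H* libraries. The groups did not overlap (15.4% ± 1.07 against 3.98% ± 0.092, SD, n = 3, exact two-sided permutation p = 0.1, the smallest that 3 against 3 libraries allow). The difference was smaller once the outermost 20 nucleotides on both sides of each spacer were dropped, a setting chosen after the data were seen: 99 positions remained and the share was 3.66% ± 0.0502 in WT against 2.54% ± 0.0941 in the mutant, again without overlap. The mean per position was 48.0 ± 5.36 normalized reads in WT against 25.7 ± 1.93 at the other spacer positions, and 36.5 ± 0.62 in the mutant against 86.1 ± 0.874. The median pointed another way in WT, at 7.74 ± 0.876 against 9.88 ± 0.413.

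Position by position, 91 of the 133 spacer positions rose in the mutant and 21 fell (limma, Benjamini-Hochberg adjusted p below 0.05 over the 6843 positions tested). Among all spacer positions tested, 82.5% rose and 4.42% fell, and the shares among the pyrimidine-rich ones were 68.4% and 15.8%. Their median log2 fold change was 1.05, against 1.66 at the other spacer positions. When libraries were scaled to the same spacer total instead, 34 rose and 61 fell, while 42.8% of all spacer positions rose and 28.1% fell. That scaling moved the median of all positions by -1.53 on the log2 scale, and under it 11.6% of all positions of the gene rose and 78.6% fell. The median log2 fold change was then -0.34 at the pyrimidine-rich spacer positions, against 0.27 at the other spacer positions. In the genes, 40 of 213 rose and 128 fell, where 29.0% and 42.1% of all gene positions did. Over the whole gene 131 of the 346 rose and 149 fell, against 40.6% and 33.9% of all positions tested, and the strains did not overlap at 287 of the 346, where the background was 78.1%.

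The 21 falls in the spacers lay in 4 tracts, and 19 of them were in the 3 tracts at the start of ITS2, the start of ETS2 and T1. Of the 26 spacer tracts, 20 had a higher mean in every mutant library than in every WT library, 3 had a lower one and 3 overlapped. Most other spacer positions were also higher: taken singly, 1126 of the 1355 tested were above WT in every mutant library, and 47 were below. The number of higher tracts is thus no trait of the pyrimidine-rich tracts. The log2 ratio of mutant over WT tract means ran from -2.59 to 3.81 with a median of 1.30. Tract means ranged from 1.20 to 393 normalized reads per position among WT tracts and from 2.43 to 183 among mutant tracts.

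**Figure D1:**
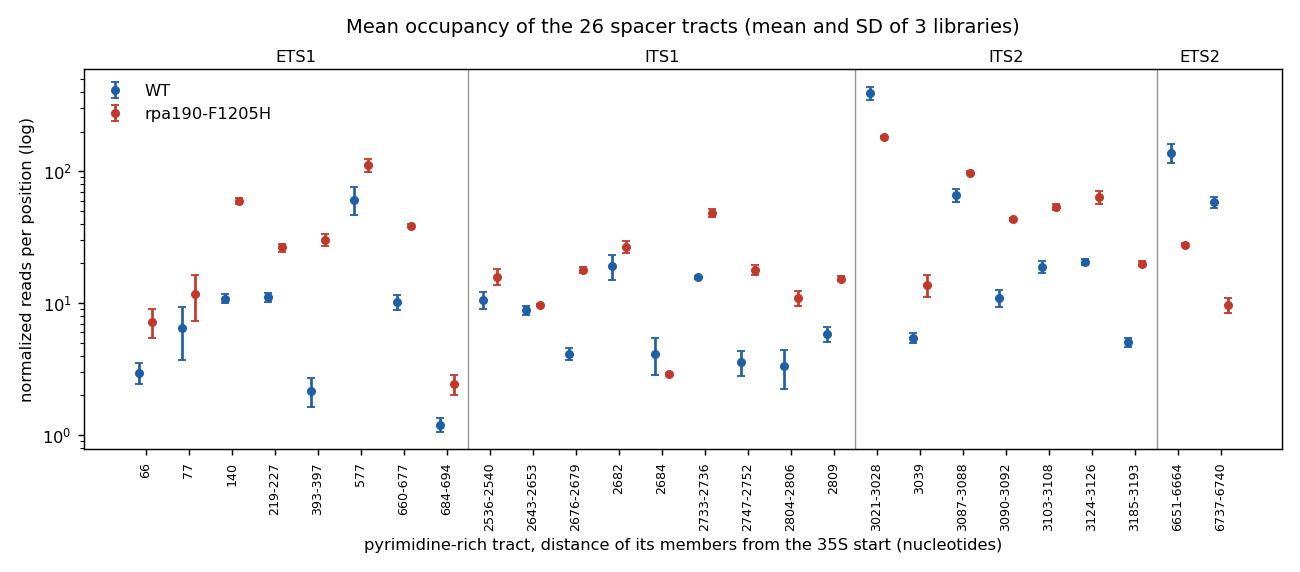
Mean normalized reads per position (log axis) of the 26 spacer tracts in order along the gene, with points and error bars for the mean and SD of 3 libraries per strain. The tracts 3021-3028, 6651-6664 and 6737-6740 lie lower in *rpa190-F1205H*, and 20 tracts lie higher. Of all spacer positions tested, 82.5% rose.

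ETS2, the spacer after 25S, held the strongest pyrimidine-rich signal relative to its surroundings. Its 18 positions averaged 101, 133 and 127 normalized reads in the WT libraries and 24.5, 23.5 and 23.0 in the mutant libraries, while its other positions averaged 5.37 ± 0.453 and 20.2 ± 1.03. The log2 ratio of pyrimidine-rich to other positions was 4.48 ± 0.0923 in WT against 0.23 ± 0.0357 in the mutant, a difference of -4.25 without overlap (exact permutation p = 0.1, n = 3). Of the 18, 11 fell and 1 rose, where 10.1% of all ETS2 positions fell and 53.6% rose. Up to T1 the ratio was 3.45 ± 0.096 in WT against -0.88 ± 0.0348 in the mutant.

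The first ETS2 tract runs from position 6651 to 6664, and its reads concentrated at positions 6661 and 6662. At the end of the tract, positions 6663 and 6664 averaged 11.9 and 4.32 normalized reads in WT against 3.81 and 3.14 in the mutant. Position 6662, next to the first nucleotide of the stretch from 6663 to 6697 that the file annotates as cleaved by Rnt1, had 812, 1162 and 1104 normalized reads in WT against 103, 98.9 and 91.2 in the mutant. Every mutant library was below every WT library, and the position fell by 3.36 on the log2 scale (SE 0.14, limma adjusted p = 2.1e-07). It was the second highest of all spacer positions in WT and ranked 376 in the mutant. Position 6661 had 435, 577 and 561 reads in WT against 83.6, 78.9 and 84.6 in the mutant (log2 change -2.65, SE 0.12). Position 6660 had 74.2, 87.8 and 98.8 against 20.8, 14.3 and 13.8 (log2 change -2.36, SE 0.17). Positions 6661 and 6662 together took 71.4% ± 2.33 of the reads at ETS2 pyrimidine-rich positions in WT against 42.3% ± 0.242 in the mutant.

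T1, the terminator position 6739, lies in a run of 4 pyrimidine-rich positions and fell as well. It had 172, 189 and 152 normalized reads in WT against 21.7, 24.7 and 14.4 in the mutant (log2 change -3.04, SE 0.19, limma adjusted p = 1.5e-06), again with no overlap. The position 6 nucleotides further on, which is not pyrimidine-rich, averaged 34.2 reads in WT against 117 in the mutant.

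**Figure D2:**
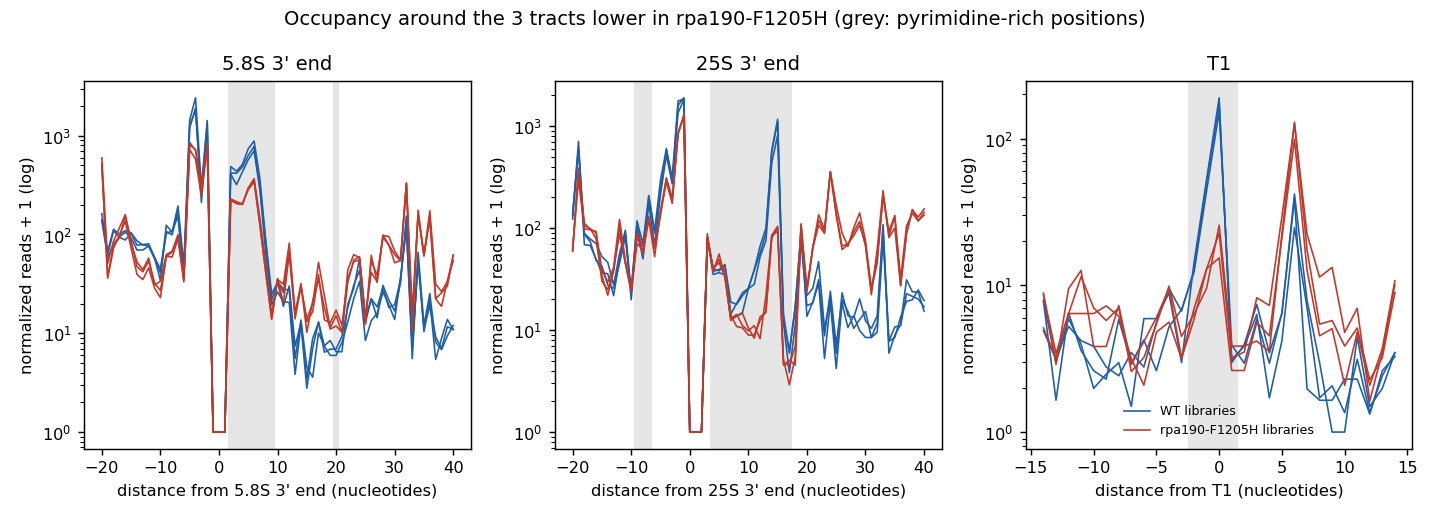
Normalized reads plus 1 (log axis) in each library against distance in nucleotides from the 5.8S 3′ end, the 25S 3′ end and T1, with pyrimidine-rich positions shaded. In the shaded tracts the WT lines lie above the mutant lines where reads are highest. Mean normalized reads are 1026 in WT against 97.7 in the mutant at 15 nucleotides past the 25S end, and 171 against 20.3 at T1.

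In ITS2, between 5.8S and 25S, the positions that fell were those of the first tract. Its 32 positions averaged 98.0, 110 and 123 normalized reads in WT against 77.3, 78.1 and 78.7 in the mutant, and the log2 ratio to other ITS2 positions was 2.34 ± 0.0745 and 0.05 ± 0.0131. The difference of -2.29 was without overlap (exact permutation p = 0.1, n = 3). All 8 positions of the tract from 3021 to 3028 fell and the other 24 rose, where 4.33% of all ITS2 positions fell and 90.0% rose. The 8 lie 2 to 9 nucleotides past the 5.8S 3′ end, in the stretch that is trimmed when 5.8S matures. The first 6 of them held 86.2% ± 0.739 of the reads at ITS2 pyrimidine-rich positions in WT against 56.5% ± 0.327 in the mutant. Position 3025, the highest, had 702, 780 and 884 reads in WT against 341, 357 and 367 in the mutant (log2 change -1.14, SE 0.11, limma adjusted p = 2.0e-05), and the groups did not overlap.

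With 20 nucleotides left out at each end of ITS2, a setting chosen after the data were seen, 23 positions remained and the ratio was below 0 in both strains, at -0.45 ± 0.0106 in WT against -0.82 ± 0.0207 in the mutant. These positions averaged 16.8 ± 1.52 normalized reads in WT against 44.2 ± 0.356 in the mutant, and the other ITS2 positions 22.9 ± 2.22 and 77.9 ± 0.579. Within ITS2, position 3106 had 20.6, 26.6 and 24.3 reads in WT against 92.7, 83.7 and 87.6 in the mutant, and it rose by 1.85 on the log2 scale (SE 0.11). Position 3124 had 23.4, 20.7 and 24.9 against 82.1, 98.9 and 119 (log2 change 2.06, SE 0.14). All 6 ITS2 tracts past the first were higher in every mutant library, by 0.57 to 1.98 on the log2 scale. So were 185 of the 199 other ITS2 positions tested, taken singly.

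**Figure D3:**
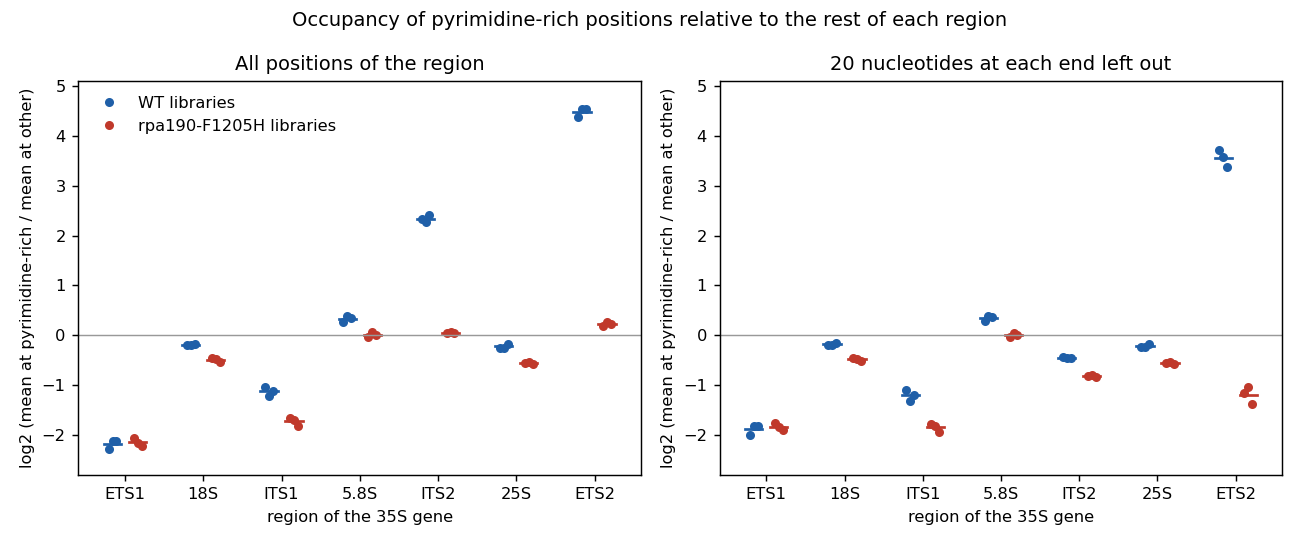
The log2 ratio of mean normalized reads at pyrimidine-rich positions to that at other positions, by region of the 35S gene, with all positions (left) and with 20 nucleotides at each end left out (right). Points are libraries and bars are means of 3, and the ETS2 ratio goes from 4.48 in WT to 0.23 in the mutant while ETS1 is at -2.18 and -2.15.

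In ETS1, the spacer before 18S, pyrimidine-rich positions were less occupied than the rest of the region in both strains. Their mean was 7.21, 9.32 and 8.21 normalized reads in WT against 29.0, 27.4 and 26.9 in the mutant, against 37.2 ± 2.83 and 123 ± 1.77 at other ETS1 positions. The log2 ratio was -2.18 ± 0.0954 in WT against -2.15 ± 0.0754 in the mutant, which overlapped (difference 0.025, exact permutation p = 0.7, n = 3). By medians the ratio was lower in the mutant, at -2.53 ± 0.131 against -1.74 ± 0.0965, without overlap, so the direction of this comparison depends on the average used. Of 47 positions 40 rose and none fell, where 87.5% of all ETS1 positions rose and 3.02% fell.

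The largest rise named was at position 393, the first of the 5 positions of the ETS1 middle tract. It had 6.39, 5.42 and 6.15 normalized reads in WT against 141, 129 and 107 in the mutant (log2 change 4.17, SE 0.12, limma adjusted p = 4.6e-08). Rises were named among positions with adjusted p below 0.05, no overlap and a mean of at least 50. Position 393 reached that mean only through the mutant libraries, so passing these limits is not separate support. The tract as a whole was at 2.16 ± 0.528 in WT against 30.3 ± 3.38 in the mutant. The longest tract of the gene, positions 660 to 677, went from 10.2 ± 1.34 to 38.7 ± 0.94, and all 18 of its positions rose. In the tract from 684 to 694, close to 18S, the level was low in both strains, at 1.20 ± 0.145 and 2.43 ± 0.403, and 5 of 11 positions rose. Position 577, a single position with the highest WT level among the pyrimidine-rich positions of ETS1, had 49.0, 76.9 and 57.0 reads in WT against 125, 110 and 99.0 in the mutant (log2 change 0.87, SE 0.17), which turned to -0.67 with equal spacer totals.

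ITS1, between 18S and 5.8S, lay between these cases. Pyrimidine-rich positions averaged 7.70, 8.05 and 8.44 normalized reads in WT against 18.8, 17.6 and 16.6 in the mutant, and the log2 ratio to other positions was -1.12 ± 0.0939 and -1.73 ± 0.0791, lower in every mutant library (difference -0.60, exact permutation p = 0.1, n = 3). Of 36 positions 26 rose and 2 fell, where 84.4% of all ITS1 positions rose and 3.89% fell. The tract from 2643 to 2653 was at 8.84 ± 0.692 in WT against 9.64 ± 0.174 in the mutant, which overlapped, and 4 of its 11 positions rose and 2 fell. One of those that fell, position 2645, had only pyrimidines in its window and had 14.6, 12.8 and 24.9 reads in WT against 7.86, 8.88 and 10.6 in the mutant (log2 change -0.82, SE 0.22). Position 2736 rose, from 16.3, 24.7 and 19.8 to 92.1, 94.2 and 81.7 (log2 change 2.10, SE 0.15).

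In the mature rRNA genes, where contaminating mature rRNA may add to the reads, the pyrimidine-rich positions were close to the rest, and somewhat lower in the mutant. In 18S the log2 ratio was -0.19 ± 0.0177 in WT against -0.49 ± 0.0389 in the mutant, and in 25S -0.23 ± 0.0398 and -0.56 ± 0.017. In 5.8S, with only 7 positions, it was 0.32 ± 0.061 and 0.01 ± 0.0551. None of these overlapped between strains (exact permutation p = 0.1 each, n = 3). In 18S 35 of 71 positions fell and 13 rose, where 35.3% and 33.8% of all 18S positions did, and in 25S 88 of 135 fell and 26 rose, where 45.1% and 26.8% did. In 5.8S 5 of 7 fell and 1 rose, where 55.8% and 20.5% did. By strain mean, the pyrimidine-rich position of each gene that was highest in WT fell: 1290 in 18S from 548 to 367, 2983 in 5.8S from 856 to 286 and 6027 in 25S from 718 to 292 normalized reads (limma adjusted p = 0.0014, 4.9e-06 and 6.6e-05). Picking the highest WT position favours a fall. Positions 1290 and 2983 were also the highest in the mutant. In 25S the highest in the mutant was 6136, at 432 in WT against 382 in the mutant. It did not pass (limma adjusted p = 0.14), though every mutant library was below every WT library.

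Occupancy was followed over the number of pyrimidines in the window to see how the rule's threshold sits in it. In ETS1 the mutant mean went from 235 ± 1.68 normalized reads at 1 pyrimidine to 71.4 ± 1.12 at 7, just outside the rule, 32.3 ± 1.56 at 8, just inside it, and 17.5 ± 0.921 at 9, and it was higher again at 27.1 ± 0.501 over the 7 positions with 10. WT went from 27.3 ± 1.89 at 7 to 9.82 ± 1.34 at 8 and was at 6.60 ± 0.207 at 10. In all spacers together the mean in WT was 19.6 ± 1.39 at 7 and 24.1 ± 2.03 at 8, and in the mutant 51.5 ± 0.876 and 32.5 ± 0.864. Over all positions of a region, Spearman's correlation of pyrimidine number with normalized reads averaged -0.254 in WT against -0.294 in the mutant for ETS1, -0.232 and -0.329 for ITS1, -0.0111 and -0.232 for ITS2, 0.0161 and -0.240 for ETS2, -0.142 and -0.265 for 18S and -0.122 and -0.284 for 25S. Neighbouring positions share 9 of 10 window bases, so these are descriptions without a test.

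**Figure D4:**
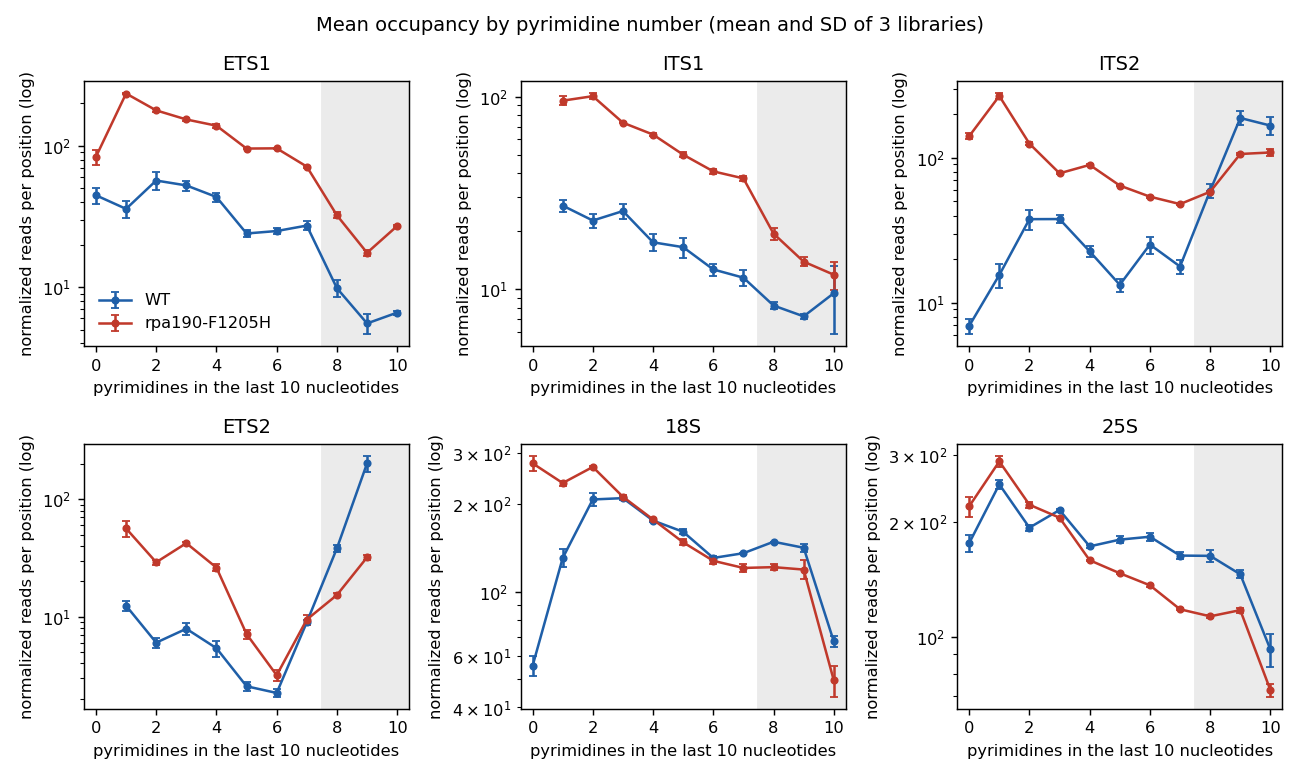
Mean normalized reads per position (log axis) against the number of pyrimidines in the last 10 nucleotides, for the 4 spacers and for 18S and 25S, with the mean and SD of 3 libraries per strain and the pyrimidine-rich range shaded. In ETS1 the mutant falls from 71.4 at 7 pyrimidines to 32.3 at 8, and in ETS2 and ITS2 WT is highest within the shaded range.

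Of the 16 positions with pyrimidines only, 7 rose (43.8%), 5 fell (31.3%) and 4 did not pass the test. Of all positions tested, 40.6% rose and 33.9% fell. That share mixes the spacers, where 82.5% rose and 4.42% fell, with the genes, where 29.0% rose and 42.1% fell. The spacers held 11 of the 16. Those that rose were all in the spacers: 666 to 670 in the longest ETS1 tract, 2750 in ITS1 and 3106 in ITS2. Position 670 had 5.68, 5.42 and 6.48 normalized reads in WT against 43.7, 47.9 and 45.0 in the mutant (log2 change 2.76, SE 0.10). Those that fell were 1400 and 1401 in 18S, 2645 in ITS1, 3026 in ITS2 and 4944 in 25S. Position 3026 had 278, 290 and 363 reads in WT against 123, 123 and 144 in the mutant (log2 change -1.24, SE 0.13).

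Along the tracts of ETS1 and ITS1, occupancy was lowest near the end of the tract, more clearly in the mutant than in WT. Over the 10 tracts of ETS1 and ITS1 with at least 3 positions, the mean log2 of the value plus 1 over the region mean plus 1 was lowest 2 nucleotides before the last position, at -2.52 ± 0.258 in WT against -3.32 ± 0.0965 in the mutant. At 11 nucleotides before the last position it was -2.20 ± 0.0517 in WT, close to the WT low, against -2.04 ± 0.212 in the mutant. This mean log2 was highest 6 nucleotides past the last position, at 0.10 ± 0.17 and 0.25 ± 0.0522. Over 32 tracts of 18S and 25S it was lowest 7 nucleotides past the last position, at -1.09 ± 0.0226 and -1.08 ± 0.0718. Offsets were picked as extremes after the values were seen, and no test was made of them.

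**Figure D5:**
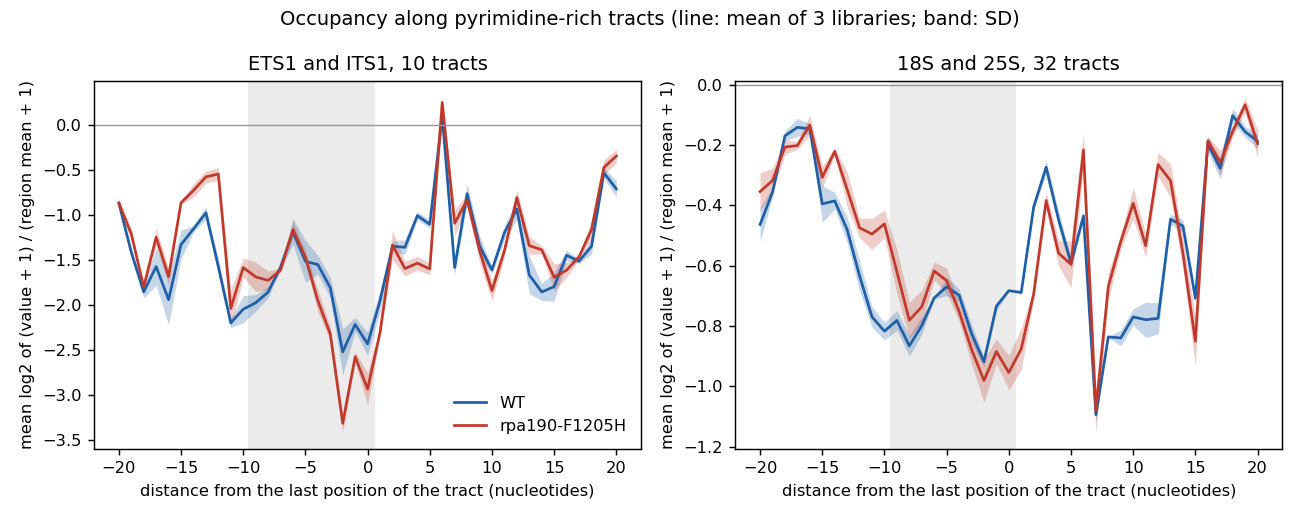
Mean log2 of (normalized reads + 1) over (region mean + 1) against distance in nucleotides from the last position of a tract, for 10 tracts of ETS1 and ITS1 and 32 of 18S and 25S, with lines for the mean and bands for the SD of 3 libraries. The 10 nucleotides ending at the last position are shaded, and the spacer profile is lowest 2 nucleotides before it, at -2.52 in WT against -3.32 in the mutant.

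Among the 38 most occupied spacer positions (2.5% of them) in each library, 9, 9 and 8 were pyrimidine-rich in WT against 0, 0 and 0 in the mutant, a share of 22.8% ± 1.52 against 0 (exact permutation p = 0.1, n = 3). Of all spacer positions, 8.84% were pyrimidine-rich. The paper had already reported, from these libraries, C/T-rich sequences at the top 2.5% of spacer positions in WT and A/G-rich ones in the mutant. This comparison is therefore not independent of that result. In WT the pyrimidine-rich ones were positions 3021 to 3026, 6661 and 6662, and T1 in all but 1 library. With 20 nucleotides at each spacer end left out the share was 1.96% ± 1.7 in WT against 0 in the mutant, which overlapped. The best rank of a pyrimidine-rich position among the spacers was 2 in WT, at 6662, and 55 in the mutant, at 3025.

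Levels by last base were compared between C and U over all pyrimidine-rich spacer positions. The 28 positions ending in C exceeded the 81 ending in U by 0.59 ± 0.0526 on the log2 scale in WT against 0.56 ± 0.0812 in the mutant, each value being taken relative to its region mean, and the strains overlapped (exact permutation p = 0.7, n = 3). Without 20 nucleotides at each end the values were 0.03 ± 0.0566 and 0.39 ± 0.12 and no longer overlapped (p = 0.1 by the exact permutation test, n = 3), so the direction of the difference rests on the positions next to the mature ends.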

How the data were processed

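NET-Seq 3′ ends were read from the table the authors deposited, which gives 1 row per position of the 35S gene in build R64. Per the labels and methods, reads were deduplicated by molecular identifier, trimmed, aligned and counted. The submitters' processing notes list cutadapt 1.12, STAR 2.7.1a, SAMtools 1.6 and bedtools 2.26.0, and the methods name other versions of cutadapt and bedtools. The handling of reads that match several rDNA repeats is not given in the sources used here. The deposited values were RPM (read ends scaled to a fixed total) and summed to 1000000 over positions 1 to 6739 (T1) in each library. Columns with the authors' means, medians, coefficients of variation, intervals, mean change, ratio and p-value were not used. Whole reads were recovered for 99.98% of 41148 values (within 0.02 read).

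limma 3.58.1 (R 4.3.3) was fitted on log2(RPM + 1) of the 3 WT and 3 *rpa190-F1205H* libraries over 6843 positions with a read, with Benjamini-Hochberg adjustment. On the log2(RPM + 1) scale the changes of low positions are understated. Single values were compared with exact two-sided permutation tests. p-values measure the spread between these cultures only. On simulated reads, limma recovered 175 of 200 changed positions with 10 other calls, edgeR 188 with 3 and DESeq2 186 with 6. The changed positions were few and none had low counts, unlike in the data, so the simulation does not test either condition. edgeR 4.0.16 and DESeq2 1.42.0 on the recovered reads, other scalings, thresholds and windows, and leaving out each library were the alternatives. Of the pyrimidine-rich positions, 52 had under 10 reads in a WT library and 14 in a mutant library.

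The positions and lists were chosen with earlier results of these data known. Positions named were the highest WT and mutant pyrimidine-rich position of each region, the 6 longest tracts and every position with pyrimidines only. Up to 5 spacer rises and 5 falls were also named. These were the largest with limma adjusted p below 0.05, a mean over all libraries of at least 50 normalized reads and no overlap. Passing these limits is thus part of the choice and not separate support. Rises 393, 2736, 3104, 3106 and 3124 reached that mean only through the mutant libraries, and falls 6660 and 6739 only through WT.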

Additional observations from a re-analysis of the deposited data

How the results depend on the processing

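Counts of pyrimidine-rich positions that rose or fell depended most on scaling and on the rule. With equal spacer totals 36 of all rose and 270 fell, where 11.6% and 78.6% of all positions did, and in the spacers 34 rose and 61 fell. With at least 7 of 10 pyrimidines 380 of 1004 rose and 403 fell, and in the spacers 238 of 317 and 29. With at least 9 of 10, 36 of 85 rose and 31 fell, and in the spacers 31 of 52 and 14. With 7 of the last 8, 88 of 220 rose and 90 fell, and in the spacers 66 of 97 and 16. Under the same fit 40.6% of all positions tested rose and 33.9% fell, and in the spacers 82.5% and 4.42%. The difference in the share of spacer reads, -11.4 percentage points, was -1.12 without 20 nucleotides at each end. With a mean of at least 10 normalized reads 56 pyrimidine-rich spacer positions rose, and with 20 nucleotides at each end left out 5 fell. The shares over all spacer positions under either setting are not given, so these counts are not read further. edgeR and DESeq2 on recovered reads called the named positions as limma did for 30 of 31. The ETS1 ratio difference turned to -0.795 with medians, -0.090 without the highest 1% of positions, -0.466 with mean log2 values and -0.315 at 7 of 10. The 5.8S difference turned to 0.0448 at 7 of 10, and no 5.8S position had 9. The C against U difference turned to 0.243 and 0.359 without 10 and 20 nucleotides at each end. With equal spacer totals the log2 changes of positions 577, 691 and 3104 turned to -0.67, -0.52 and -0.018.

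Leaving out each library gave 115 to 130 rises and 138 to 150 falls in all, 85 to 90 and 21 to 25 in the spacers, and ratio differences of -0.0296 to 0.0589 for ETS1 (below 0 without WT 1, at -0.0296, or without *rpa190-F1205H* 1, at -0.0154), -0.316 to -0.278 for 18S, -0.651 to -0.557 for ITS1, -0.344 to -0.283 for 5.8S, -2.33 to -2.26 for ITS2, -0.345 to -0.311 for 25S and -4.31 to -4.22 for ETS2. The difference in the share among the top spacer positions ran from -23.7 to -22.4 percentage points, that in the share of spacer reads from -11.8 to -10.8, and the C against U difference from -0.0811 to -0.0092. Deviations from the strain means correlated at 0.127, 0.0274 and 0.201 for the same replicate numbers and at -0.158 to 0.0298 for different numbers. These values do not settle whether replicate numbers pair the libraries. With the replicate block 136 pyrimidine-rich positions rose and 153 fell, 94 and 22 in the spacers. Shares over all positions are not given for this fit or for those leaving out a library, so these counts show only how far the calls moved. Depth limits the spacer positions most.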
